A study of Mus with 6 samples.

Results

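The circadian clock genes described here are Clock, the period genes Per1, Per2 and Per3, the cryptochrome genes Cry1 and Cry2, the REV-ERB genes Nr1d1 and Nr1d2, and the PAR bZIP genes Dbp and Tef. They were taken by name, and 10 of 10 were found among the 20893 genes of the expression table. The libraries are RNA sequencing of mouse cardiac microvascular endothelial cells, which bead selection kept for carrying CD31 and lacking CD45. 3 libraries are from Ccl28 knockout (KO) mice and 3 from wild-type (WT) mice, with replicate numbers 2, 3 and 4 in each group, and every heart of both groups had its left coronary artery ligated, which produces a myocardial infarction. Titles name Ccl28 for every KO library, while the genotype field of KO replicates 3 and 4 reads Ccl29 and Ccl30, and the titles were followed. Strain, sex, age, how the knockout was made, the interval after ligation and the time of day of harvest are not given in the sources used here. The sources used here do not state whether the replicates came from different animals. The p-values therefore speak to the spread among these 6 libraries, part of which may be technical.

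The mammalian clock is a transcription feedback loop that runs in nearly every cell, including cardiac endothelium. CLOCK pairs with BMAL1, the product of Arntl, and the pair switches on the Per, Cry, Nr1d1, Nr1d2, Dbp and Tef genes, whose PER and CRY products then switch the pair off. A second loop sets Arntl and Clock against the REV-ERB repressors, so that in mouse tissues Dbp and Nr1d1 transcripts peak when Arntl and Clock transcripts are low, with Cry1 lagging behind the other repressors.

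Levels are FPKM as deposited, fragment numbers scaled to transcript length and library size. Log2 fold changes set KO over WT after 1 was added to each FPKM, so changes of weakly expressed genes come out too small. A gene was called at a Benjamini-Hochberg adjusted p under 0.05 in limma over the 10806 genes that reached an FPKM of 1 in 3 or more libraries, and all 10 clock genes were among them. Reads recovered per library numbered 36004457 to 37780513 in KO and 39104282 to 40500067 in WT, of which each clock gene had 681 to 14850 per library. Ccl28 itself had 0 reads in each KO library, against 16, 11 and 24 in WT replicates 2, 3 and 4. The endothelial gene Pecam1, which encodes CD31, had 560.5 to 647.7 FPKM in KO and 673.2 to 743.9 in WT, and Ptprc, which encodes CD45, had 1.01 to 1.41 in KO and 0.871 to 1.71 in WT. Fold changes across all genes followed transcript length. For each library, log2 values minus each gene's mean over the 6 libraries were fitted on log2 length. The slope was -0.155 to -0.091 in KO and 0.101 to 0.135 in WT. These slopes are relative to the mean of all libraries, so they show a difference between the groups and not the trend of a library by itself. Genotype and this length trend cannot be told apart by group, so each clock gene is also given with the trend removed from every library.

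6 of the 10 clock genes were lower in KO and none was higher in limma, while at an unadjusted p under 0.05 the counts were 6 lower and 1 higher (Dbp). The 6 were Clock, Per1, Per2, Per3, Cry1 and Nr1d2, and in each of them every KO library lay below every WT library. Cry2, Nr1d1, Dbp and Tef did not pass, and their groups overlapped. Among all tested genes 25.8% were called lower and 18.3% higher, together 44.2%. KO libraries lay wholly below WT libraries in 31.9% of all tested genes. The split over all genes was 1982 higher and 2790 lower, and 2577 higher and 2389 lower with median-ratio scaling. The median log2 fold change of the 10 clock genes was -0.36, against -0.03 over all tested genes. In the authors' deposited table, 5 of the 10 were lower at q under 0.05, the exception among the 6 being Per1 at q = 0.0571, and 15.7% of its 17686 genes were lower at that threshold.

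**Figure D1:**
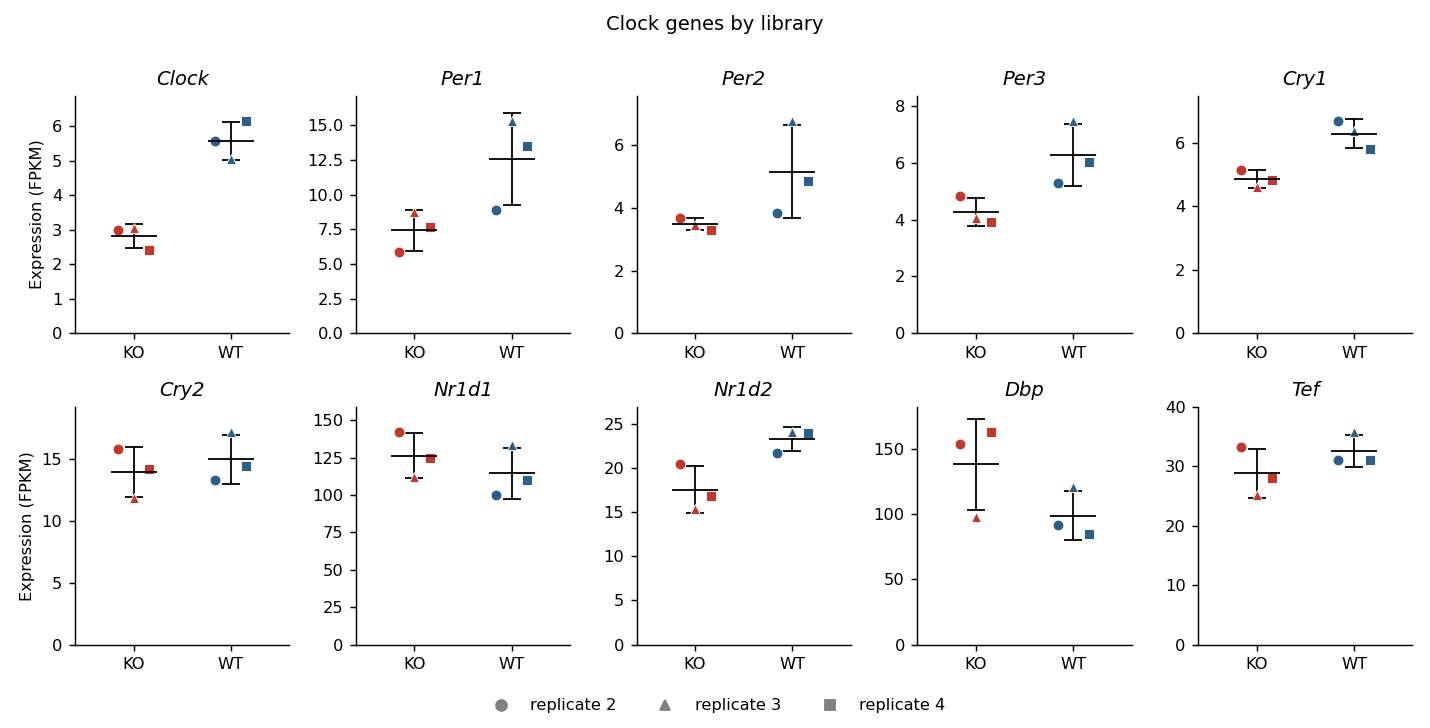
FPKM of each clock gene (vertical axis, linear, from 0) in the KO libraries (red) and the WT libraries (blue), with marker shapes for replicate numbers and black bars for the mean and SD of 3 libraries. Clock, Per1, Per2, Per3, Cry1 and Nr1d2 show no overlap between KO and WT, while Dbp in KO replicate 3 (98.2 FPKM) sits among the WT values and apart from KO replicates 2 and 4 (154.2 and 163.1 FPKM).

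With the length trend removed, 1 of the 10 was called lower and none higher in limma, against 9.14% and 9.93% of all tested genes. That gene was Clock, and at an unadjusted p under 0.05 Cry1 joined it and still none was higher. The median of the 10 was then -0.14, against 0.01 over all tested genes. The part of each fold change that went with length was -0.41 for Clock, -0.38 for Per1 and -0.12 for Cry1, and 0.07 for Dbp, whose implied transcript length of 2529 nt was the shortest of the 10. Clock had the longest, at 10130 nt. Reads and lengths could be recovered from the deposited values, and in a limma-voom fit on the reads Dbp was called as well, as higher, so that 6 were lower and 1 higher, beside 27.7% and 17.3% of all tested genes.

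**Figure D2:**
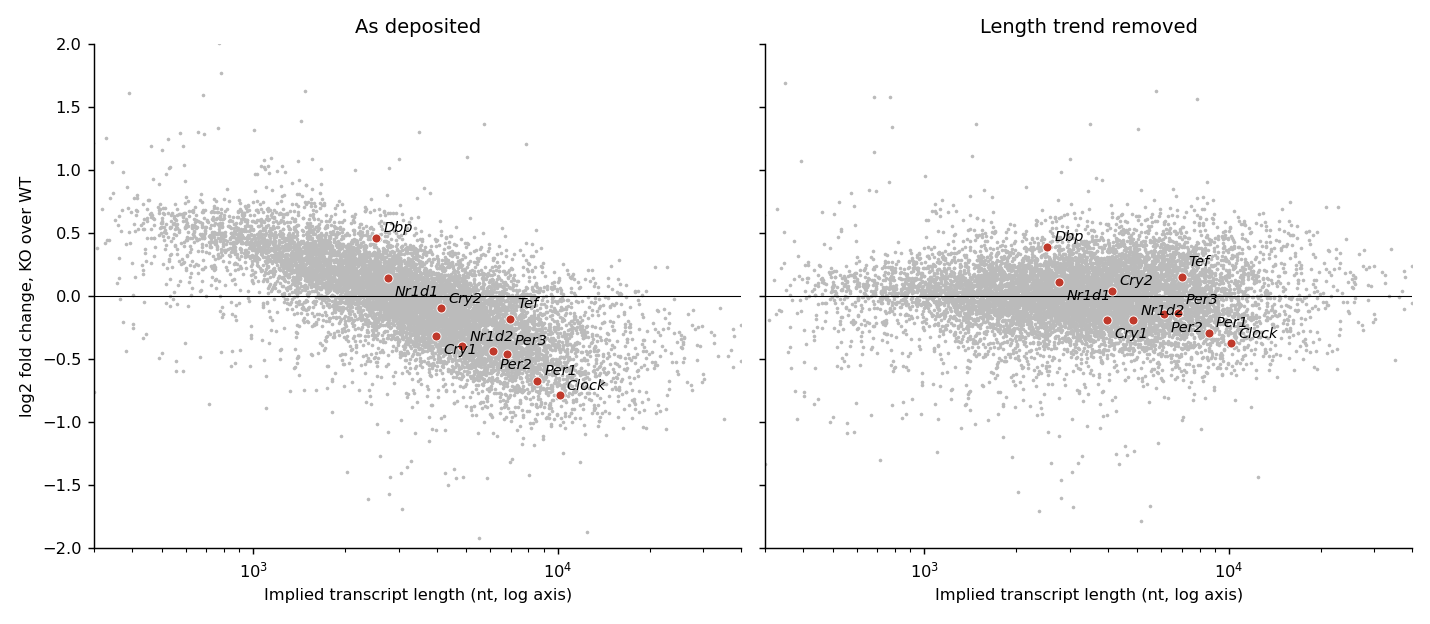
Log2 fold change, KO over WT, of 10806 tested genes (grey points) and the 10 clock genes (red, named) against implied transcript length on a log axis, as deposited on the left and with the length trend removed on the right. Clock, at 10130 nt, moves from -0.79 to -0.37, and Dbp, at 2529 nt, from 0.46 to 0.39.

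Among the activators, Clock encodes the DNA-binding partner of BMAL1 and has gene ID 12753 (GRCm38, chromosome 5, 76209868 to 76305603). It had 2.98, 3.05 and 2.43 FPKM in KO replicates 2, 3 and 4, against 5.55, 5.05 and 6.15 FPKM in WT replicates 2, 3 and 4. The KO libraries were all well below the WT libraries, with averages of 2.82 ± 0.341 in KO and 5.58 ± 0.55 in WT (SD, n = 3 each), a 1.98-fold lower level (log2 fold change -0.79, SE 0.11, limma adjusted p = 0.000685). This call held under 14 of 15 other settings. With the length trend removed the log2 fold change was -0.37 (95% interval -0.57 to -0.18, adjusted p = 0.0186), and the call was then lost when KO replicate 4 was left out (adjusted p = 0.0588), when WT replicate 4 was left out (adjusted p = 0.0845) and under the replicate block (adjusted p = 0.0739). In this bulk comparison fewer cells of a type and less RNA per cell cannot be told apart, for Clock or for any other gene below.

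Arntl, Arntl2 and Npas2 each had fewer reads in every library than any of the 10 clock genes. Arntl, which encodes BMAL1, had 222, 302 and 233 reads in the KO libraries and 270, 200 and 251 in the WT libraries. Its implied length was 19268 nt, and its FPKM of 0.354 ± 0.0604 in KO and 0.314 ± 0.0428 in WT lay below the filter. The Arntl values of the groups overlapped, and without a filter on low values its log2 fold change was 0.04 with an adjusted p of 0.605. Npas2, which can stand in for Clock, had 0 to 27 reads in KO and 3 to 13 in WT. Arntl2, a relative of Arntl, was tested and had 1.43 ± 0.45 FPKM in KO and 1.37 ± 0.275 in WT (adjusted p = 0.895). It had fewer reads than Arntl in every library, at 161, 235 and 125 in KO and 221, 144 and 170 in WT. Its implied length of 3269 nt put it above the filter, so the lower FPKM of Arntl goes with its implied length and not with fewer reads.

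The period genes encode the PER repressors. Per1 (GRCm38, chromosome 11, 69095108 to 69109965), which is also induced quickly by hormones and other stimuli, had 5.84, 8.75 and 7.67 FPKM in KO replicates 2, 3 and 4 and 8.89, 15.3 and 13.5 FPKM in WT replicates 2, 3 and 4. The highest KO library and the lowest WT library nearly met, and the log2 fold change was -0.67 (SE 0.18, adjusted p = 0.0154). The Per1 call was narrowly lost without KO replicate 2 (adjusted p = 0.0513), without WT replicate 3 (adjusted p = 0.0529) or without WT replicate 4 (adjusted p = 0.0518).

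Per2, the paralogue whose loss disturbs rhythms most clearly in mice (chromosome 1, 91415977 to 91459351), had 3.69, 3.45 and 3.3 FPKM in KO and 3.85, 6.77 and 4.86 in WT. The 3 KO libraries were alike, while WT replicate 3 stood above the other WT libraries. Its log2 fold change of -0.43 (SE 0.15, adjusted p = 0.0428) lost the call without KO replicate 2, 3 or 4 or WT replicate 3 or 4, with adjusted p from 0.0658 to 0.1145, and was -0.25 without WT replicate 3. Under the replicate block the adjusted p was 0.0566, and with median-ratio scaling it was 0.0815.

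Per3 (chromosome 4, 150997018 to 151044707) had 4.84, 4.04 and 3.93 FPKM in KO and 5.3, 7.47 and 6.05 in WT. It averaged 4.27 ± 0.495 in KO and 6.28 ± 1.1 in WT (log2 fold change -0.46, SE 0.12, adjusted p = 0.014), and the call was kept with any 1 library left out. WT replicate 3 was the highest library for all 3 period genes. With the length trend removed the 95% intervals were -0.74 to 0.16 for Per1, -0.52 to 0.23 for Per2 and -0.43 to 0.16 for Per3, so each included 0 as well as falls larger than 0.4 on the log2 scale.

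The cryptochromes complete the PER-CRY repressor. Cry1, the stronger and later repressor (chromosome 10, 85131700 to 85185054), had 5.16, 4.61 and 4.82 FPKM in KO and 6.69, 6.38 and 5.8 in WT. These narrow groups did not overlap, and the level was 1.29-fold lower in KO (log2 fold change -0.31, SE 0.09, adjusted p = 0.0188). Leaving out KO replicate 3 or WT replicate 2 ended the Cry1 call (adjusted p = 0.059 for each). Once the length trend was taken out, its log2 fold change was -0.19 (adjusted p = 0.144). Cry2 (chromosome 2, 92403646 to 92434085) had 15.8, 11.9 and 14.2 FPKM in KO and 13.3, 17.2 and 14.4 in WT. The groups were interleaved, and the log2 fold change of -0.1 had a 95% interval of -0.36 to 0.17 (adjusted p = 0.537).

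The remaining E-box repressors belong to the wider clock list. Ciart, which encodes a repressor of CLOCK and BMAL1, had 3.86, 3.03 and 5.97 FPKM in KO and 2.75, 3.76 and 2.76 in WT (log2 fold change 0.34, adjusted p = 0.161). It was called higher without KO replicate 3 (0.52, adjusted p = 0.036), but not with any other library left out (adjusted p from 0.102 to 0.536). Bhlhe40, whose product DEC1 competes for the same E-boxes, had 33.4, 38 and 34.3 FPKM in KO and 49.6, 39.7 and 45.4 in WT. It was lower in KO on the deposited values (log2 fold change -0.34, adjusted p = 0.0148) and once the length trend was taken out (-0.32, adjusted p = 0.0267). On the deposited values, leaving out KO replicate 2 or WT replicate 4 ended that call (adjusted p = 0.0522 and 0.0515). Its paralogue Bhlhe41 averaged 1.29 ± 0.287 FPKM in KO and 1.24 ± 0.329 in WT (adjusted p = 0.868).

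Of the REV-ERB repressors of the second loop, Nr1d1 encodes REV-ERB alpha, which silences Arntl through ROR elements (chromosome 11, 98767932 to 98775377). It had 141.9, 112.3 and 124.5 FPKM in KO and 99.9, 133.2 and 110.1 in WT. The groups overlapped, and the log2 fold change was 0.14 (95% interval -0.11 to 0.40, adjusted p = 0.335), with -0.01 under quantile normalization. Nr1d1 shares 1075 bp of chromosome 11 with Thra, at 22.2 to 25.9 FPKM in KO and 25.5 to 30.8 in WT, and the strand setting of the counting is not given in the sources used here, so reads of the shared stretch are uncertain.

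Nr1d2, which encodes REV-ERB beta (chromosome 14, 18204056 to 18239106), had 20.5, 15.4 and 16.9 FPKM in KO and 21.8, 24.1 and 24.1 in WT. No KO library reached a WT library, with averages of 17.6 ± 2.66 in KO and 23.3 ± 1.34 in WT (log2 fold change -0.4, SE 0.10, adjusted p = 0.0126). The call was kept with any 1 library left out, and the log2 fold change was -0.19 (adjusted p = 0.223) with the length trend removed. Of the ROR activators that oppose the REV-ERBs, Rora had 248, 252 and 282 reads in KO and 580, 592 and 642 in WT. Its implied length of 51766 nt put it at 0.127 to 0.151 FPKM in KO and 0.277 to 0.315 in WT, under the filter. Without a filter on low values its adjusted p was 0.0103, and it is far longer than any of the 10 clock genes. Rorb was listed at 0 in 3 of the 6 libraries.

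Dbp and Tef encode activators that bind D-boxes and carry the rhythm to output genes. Dbp is a direct target of CLOCK and BMAL1 with one of the widest daily swings in mouse tissues (GRCm38, chromosome 7, 45705100 to 45710203). It had 154.2, 98.2 and 163.1 FPKM in KO replicates 2, 3 and 4 and 91.8, 120.7 and 84.6 FPKM in WT replicates 2, 3 and 4. KO replicates 2 and 4 were above every WT library, whereas KO replicate 3 lay inside the WT range. It averaged 138.5 ± 35.2 in KO and 99 ± 19.1 in WT, and the log2 fold change of 0.46 (SE 0.19) missed the threshold (adjusted p = 0.0692). Dbp was called higher without KO replicate 3 (log2 fold change 0.69, adjusted p = 0.00382), without WT replicate 3 (0.61, adjusted p = 0.0327) and in limma-voom (0.47, adjusted p = 0.0318). These were 3 of 15 other settings. With any other library left out it was 0.33 to 0.42 and was not called (adjusted p from 0.154 to 0.229). The length trend removed left it at 0.39 (adjusted p = 0.194). Dbp shares 741 bp with Sphk2, which had 7.57 to 9 FPKM in KO and 7.05 to 8.18 in WT, so its shared reads are uncertain in the same way. Clock, Per2, Per3 and Cry2 also overlap other annotated genes, of which the lncRNA Gm7467, over 652 bp of Clock, had 0.568 to 1.53 FPKM in KO and 0.0392 to 1.14 in WT.

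Tef (chromosome 15, 81802673 to 81826863) had 33.3, 25.2 and 28 FPKM in KO and 31.1, 35.7 and 31 in WT. Its log2 fold change of -0.18 did not pass (adjusted p = 0.191), and it was 0.15 with the length trend removed. Hlf, the third gene of this family, averaged 2.89 ± 0.729 FPKM in KO and 4.05 ± 0.674 in WT (log2 fold change -0.39, adjusted p = 0.059), and was called lower without KO replicate 2 (adjusted p = 0.0173), without WT replicate 2 (adjusted p = 0.0299) and in limma-voom (adjusted p = 0.0286). With any other library left out Hlf was not called (adjusted p from 0.149 to 0.176), and it was at -0.11 once the length trend was removed (adjusted p = 0.662). Nfil3, which encodes a D-box repressor, had 83, 143 and 84 reads in KO and 189, 106 and 158 in WT and lay under the filter. Of the 11 other core clock genes, 5 were tested, 1 of them was called lower (Bhlhe40) and none higher in limma, where 25.8% of all tested genes were lower. An unadjusted p under 0.05 and limma-voom each gave 2 lower (Bhlhe40 and Hlf) and none higher.

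**Figure D3:**
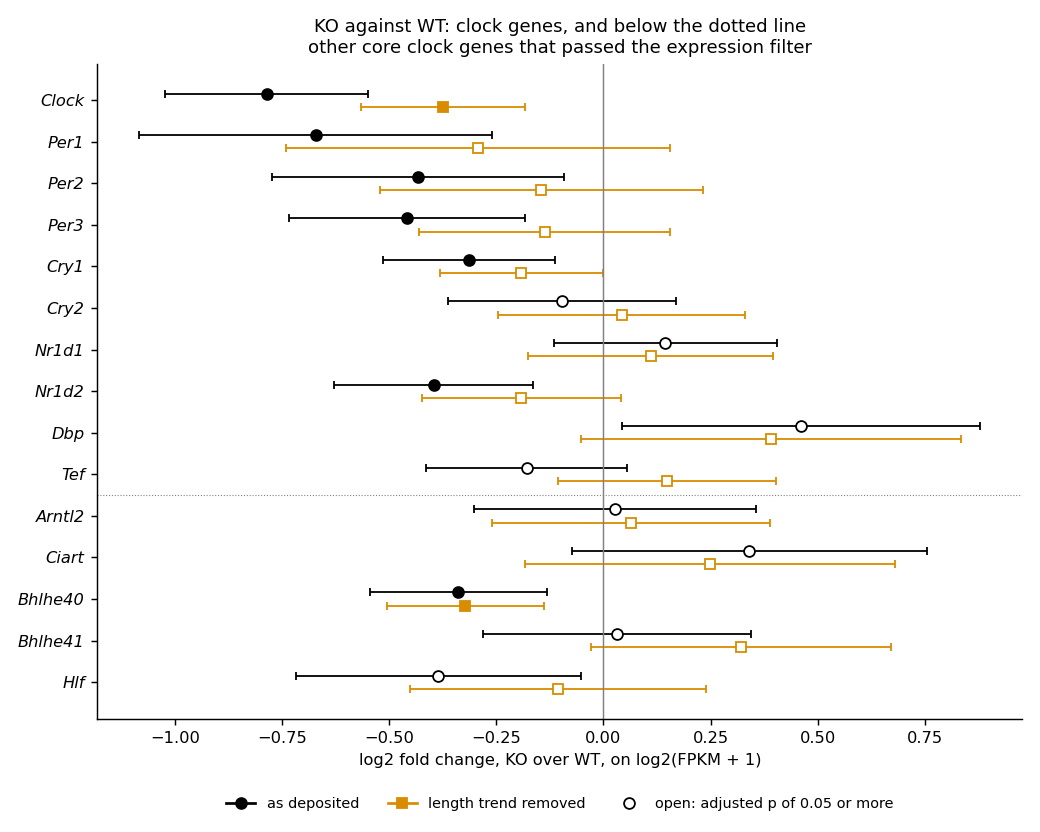
Log2 fold change, KO over WT, with 95% intervals for the 10 clock genes and, under the dotted line, the 5 other core clock genes that passed the expression filter. Black circles are values as deposited and orange squares values with the length trend removed, filled where the adjusted p is under 0.05: 7 of the black symbols are filled, and of the orange ones those of Clock (-0.37) and Bhlhe40 (-0.32).

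Per length, Nr1d1 and Dbp led in both groups, with Dbp first in KO and Nr1d1 first in WT. Nr1d1 and Dbp, at 126.2 ± 14.9 and 138.5 ± 35.2 FPKM in KO and 114.4 ± 17.1 and 99 ± 19.1 in WT, did not differ from each other beyond their spread. Tef followed, then Nr1d2, Cry2 and Per1. Nr1d2 and Cry2 were 17.6 ± 2.66 and 13.9 ± 1.99 FPKM in KO, within reach of each other's spread, and 23.3 ± 1.34 and 15 ± 1.98 in WT, apart by more than their SDs. Cry1, Per3, Per2 and Clock made up the lower end, at 2.82 to 4.86 FPKM on average in KO and 5.16 to 6.29 in WT, and in WT these 4 lay within the spread of their neighbours.

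Genes of opposed phase were set against each other within each library, since a shift in the phase of harvest moves them in opposite directions. FPKM of Dbp over FPKM of Clock was 51.7, 32.2 and 67.2 in KO replicates 2, 3 and 4 and 16.5, 23.9 and 13.8 in WT replicates 2, 3 and 4. FPKM of Nr1d1 over FPKM of Cry1 was 27.5, 24.4 and 25.8 in KO and 14.9, 20.9 and 19 in WT. Both ratios were higher in every KO library than in any WT library. Their denominators are longer than their numerators (Clock 10130 nt and Cry1 3977 nt, against Dbp 2529 nt and Nr1d1 2765 nt), so the length trend moves both in the same direction. Arntl, the gene of opposed phase to Dbp, gave another order. FPKM of Dbp over FPKM of Arntl was 505.7, 233.1 and 485.5 in KO and 265.3, 454.9 and 256.1 in WT, so that the groups overlapped. Arntl lay under the filter and is also longer than Dbp (implied length 19268 nt), so the length trend bears on this ratio too. Per1, Per2, Per3 and Nr1d2 are also activated by CLOCK and BMAL1. They were called lower in KO as deposited, but none was called with the length trend removed (limma adjusted p = 0.333, 0.578, 0.495 and 0.223). Dbp was called in neither of these fits. No test was made of these ratios, and the part of harvest time was not tested.

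**Figure D4:**
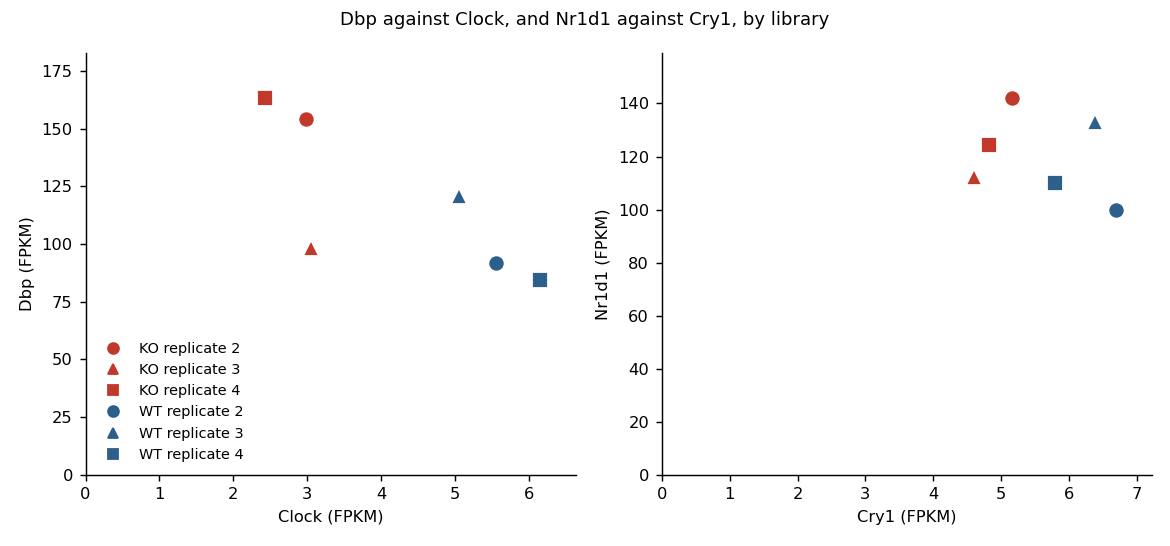
FPKM of Dbp against Clock (left) and of Nr1d1 against Cry1 (right), 1 point per library, KO in red and WT in blue, both axes linear from 0. The 3 KO libraries lie at lower Clock (2.43 to 3.05 FPKM) and lower Cry1 (4.61 to 5.16) than the WT libraries (5.05 to 6.15 and 5.8 to 6.69), while Dbp and Nr1d1 overlap between the genotypes.

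The order of the libraries within each genotype was compared between the clock genes. KO replicate 3 was the lowest KO library for 6 of the 10 (Cry1, Cry2, Nr1d1, Nr1d2, Dbp and Tef), as for 35.9% of all tested genes, and WT replicate 3 was the highest WT library for 8 (all but Cry1 and Clock), as for 19.8%. Both held for 5 genes, Cry2, Nr1d1, Nr1d2, Dbp and Tef, and for 10.9% of all tested genes. With the length trend removed the counts were 8 of 10 and 9 of 10, beside 34.1% and 35.5% of all tested genes. Both then held for 8 of the 10, the exceptions being Per1 and Clock, and for 16.9% of all tested genes. These 2 libraries were singled out after the values were seen, and the orders are a description without a test. Among the other core genes Hlf, Bhlhe41 and Ciart had the same order.

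Clock had the reverse order, highest in KO replicate 3 of the KO libraries and lowest in WT replicate 3 of the WT libraries, as 22.1% of all tested genes did (17.4% with the length trend removed). The same reverse order was seen in the other core genes Arntl, Arntl2, Npas2, Nfil3 and Bhlhe40. Of these, Arntl, Npas2 and Nfil3 lay under the filter and rest on few reads. The spread within a genotype reached 1.66-fold for Dbp among KO libraries (163.1 against 98.2 FPKM) and 1.76-fold for Per2 among WT libraries (6.77 against 3.85). For Dbp this was wider than the ratio of 1.4 between the group means, and for Per2 it was wider than the 1.48-fold lower mean in KO.

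Other measures also set these libraries apart. Summed FPKM of 7 macrophage markers was 258.4, 304.2 and 199.1 in KO replicates 2, 3 and 4 and 119.4, 79.1 and 200.7 in WT replicates 2, 3 and 4, with KO replicate 3 highest and WT replicate 3 lowest of their groups. The sum of 9 endothelial markers was 12620, 11750 and 13890 in KO and 9348, 9818 and 9201 in WT, and that of 3 erythroid markers 445.5, 306.5 and 327.9 in KO and 254.9, 290.7 and 197.8 in WT. Both sums were lowest in KO replicate 3 and highest in WT replicate 3 of their groups, as were Cry2, Nr1d1, Nr1d2, Dbp and Tef. The sums of the lymphocyte, neutrophil, mural, fibroblast and cardiomyocyte markers did not have this order. Of these, the lymphocyte and mural sums were lowest in KO replicate 3 but not highest in WT replicate 3. Most of the endothelial sum was Fabp4, at 9065, 8418 and 10610 FPKM in KO and 5819, 6207 and 5607 in WT. Of the 9 endothelial markers only Egfl7 and Fabp4 had this order themselves, and of the 3 erythroid markers only Hbb-bs. Mitochondrial mRNA took 10.5%, 12% and 12.7% of reads in KO and 6.03%, 10.8% and 7.86% in WT, so WT replicate 3 was nearest to the KO libraries. Neither the reads per library nor the length slope put KO replicate 3 and WT replicate 3 at opposite ends. Their part in the order of the clock genes was not tested.

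**Figure D5:**
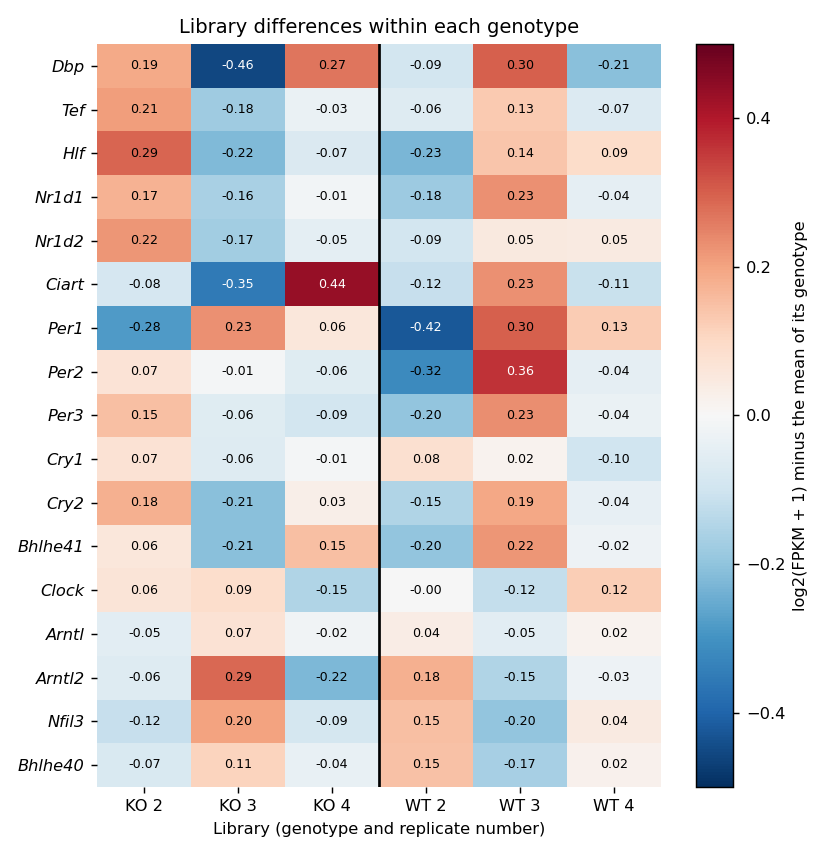
Difference of each library from the mean of its own genotype in log2(FPKM + 1), for the 10 clock genes and 7 other core clock genes, KO libraries left of the line and WT libraries right of it (red above the mean, blue below). Dbp is at -0.46 in KO replicate 3 and 0.30 in WT replicate 3, and Nfil3 at 0.20 and -0.20 in the same libraries.

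Regulators act on the stability and activity of clock proteins. Of 13 listed genes, 11 were tested, of which 7 were called lower and 1 higher, beside 25.8% and 18.3% of all tested genes. Ep300 and Crebbp encode acetyltransferase coactivators, and Ep300 had 4.29 ± 0.138 FPKM in KO and 9.06 ± 0.567 in WT (log2 fold change -0.93, adjusted p = 0.000266). Gsk3b, a kinase gene for several clock proteins, had 3.85 ± 0.0834 in KO and 7.91 ± 1.06 in WT (adjusted p = 0.00052). Ncor1, which encodes the corepressor of the REV-ERBs, had 7.54 ± 1.21 in KO and 13.3 ± 0.868 in WT (adjusted p = 0.000906). Crebbp fell by 0.64 on the log2 scale, and was not called with the length trend removed (adjusted p = 0.095). Hdac3, which encodes the deacetylase that works with NCOR1, was the gene called higher, at 33.3, 31.5 and 36.1 FPKM in KO and 26.5, 26.5 and 25.1 in WT (adjusted p = 0.00426), and is named here after its values were seen. With the length trend removed 5 were called lower, Gsk3b, Ncor1 and Ep300 among them, and none higher in limma (6 lower and 4 higher at an unadjusted p under 0.05), beside 9.14% and 9.93% of all tested genes. Csnk1e, Csnk1a1 and Btrc turned to values of 0.21, 0.17 and 0.23 on the log2 scale, and the median log2 fold change of the 11 went to -0.22, against -0.50 as deposited.

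Of 11 clock output genes, all tested, 4 were called lower and none higher in limma, beside 25.8% and 18.3% of all tested genes, 5 lower and 1 higher (Tspan4) at an unadjusted p under 0.05, and 5 lower and none higher in limma-voom. After removal of the length trend 3 were lower, beside 9.14% of all tested genes. Klf9, a transcription factor gene, had 23 ± 0.873 FPKM in KO and 34.4 ± 2.69 in WT (adjusted p = 0.000769). Thbd, the thrombomodulin gene of endothelium, had 103.9 ± 17.5 in KO and 150.1 ± 19.7 in WT (adjusted p = 0.00854). Tsc22d3 and Wee1 were the other 2, with log2 fold changes of -0.41 and -0.39, and Wee1 was not called with the length trend removed (adjusted p = 0.0917). Tspan4, a tetraspanin gene of this list, had 98.4, 81.1 and 88 FPKM in KO and 74.8, 84.1 and 70.6 in WT, lowest in KO replicate 3 and highest in WT replicate 3 of their groups as Dbp was, and did not pass (adjusted p = 0.0797). Tspan4 was named after its values were seen.

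Per1 shares inputs with immediate early and glucocorticoid-responsive genes. Of 11 immediate early genes 9 were called lower and none higher in limma, beside 25.8% and 18.3% of all tested genes. The counts were the same at an unadjusted p under 0.05 and in limma-voom, and the median log2 fold change was -1.35. With the length trend removed all 11 were called lower (median -1.28), beside 9.14% of all tested genes. Egr1 had 20.8 ± 2.42 FPKM in KO and 68.9 ± 3.04 in WT, and Fos 3.54 ± 0.314 in KO and 19.5 ± 3.45 in WT. Nr4a1 and Arc, the other 2 with the smallest p, had log2 fold changes of -2.01 and -1.4. Of 12 tested glucocorticoid-responsive genes 6 were called lower and 1 higher, beside the same 25.8% and 18.3% of all tested genes. The gene called higher was the metallothionein gene Mt2 (log2 fold change 0.48, named after its values were seen). Once the length trend was removed, 5 were called lower and none higher in limma, beside 9.14% and 9.93% of all tested genes. At an unadjusted p under 0.05 the counts were then 6 lower and none higher, and Mt2 was at -0.0059 (limma adjusted p = 0.983). Dusp1, a phosphatase gene of both lists, had 69.1 ± 9 in KO and 149.7 ± 16.3 in WT, and Errfi1, a feedback inhibitor gene of growth factor receptors, had 8.19 ± 0.255 in KO and 14.8 ± 1.83 in WT. Fkbp5, a common glucocorticoid readout named after its values were seen, had 10.2, 13.6 and 9.59 in KO and 13, 10.9 and 13 in WT (adjusted p = 0.384). The part of these stimuli in the level of Per1 was not tested.

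Marker genes of other cells also moved between the groups. Summed FPKM in KO against WT was 16.6 to 25.2 against 7.94 to 9.55 for 5 lymphocyte markers, and 34.7 to 54.8 against 14.2 to 18.3 for 4 neutrophil markers, of which Ly6g was listed at 0 in every KO library and in 2 of the 3 WT libraries. All 3 tested markers of each of these lists were called higher, beside 18.3% of all tested genes. The sum was 233.7 to 364.8 in KO and 345.3 to 456.3 in WT for 7 mural markers. It was 9.16 to 11.7 in KO and 18.7 to 19.5 in WT for 5 fibroblast markers. Of these, 6 of 7 mural and 3 of 3 tested fibroblast markers were called lower, beside 25.8% of all tested genes. Of the macrophage markers 4 of 7 were called higher. After removal of the length trend, all 3 tested markers of the lymphocyte and of the neutrophil list were still called higher. So was 1 of 7 macrophage markers (C1qc), beside 9.93% of all tested genes. Called lower were then 5 of 7 mural and 2 of 3 tested fibroblast markers, beside 9.14% of all tested genes. For 5 cardiomyocyte markers summed FPKM was 80.5 to 91.5 in KO and 66.1 to 97.3 in WT, so those ranges overlapped. For 3 erythroid markers it was 306.5 to 445.5 in KO and 197.8 to 290.7 in WT. Of these 3, 2 were called higher as deposited, beside 18.3% of all tested genes, and 0 with the length trend removed, beside 9.93%. All 9 endothelial markers were detected in every library, with sums of 11750 to 13890 in KO and 9201 to 9818 in WT. Most of these sums was Fabp4, at 8418 to 10610 FPKM in KO and 5607 to 6207 in WT. Of the 9, 3 were called higher (Egfl7, Emcn and Fabp4) and 3 lower (Cdh5, Kdr and Tek), beside 18.3% and 25.8% of all tested genes. Cdh5, Kdr and Tek were still called lower, and none higher, once the length trend was removed, beside 9.14% and 9.93% of all tested genes. Emcn was then at -0.04, Egfl7 at 0.10 and Fabp4 at 0.27 on the log2 scale. The part of their shares in the clock gene levels was not tested.

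The tested genes whose pattern was nearest to Dbp over the 6 libraries were named by the root mean square difference of centred log2(FPKM + 1) values. They were Unc45bos at 0.0962, Tmigd1 at 0.104 and Gstt2 at 0.112, where the median over all other tested genes was 0.40. Gstt2, a glutathione transferase gene, had 51.1, 37.1 and 49.6 FPKM in KO and 27.1, 38.6 and 27.8 in WT, low in KO replicate 3 and high in WT replicate 3 as Dbp was. That shared order follows from how these genes were picked. The nearest to Clock were Sp1 at 0.0136, Zfp292 at 0.0182 and Cep350 at 0.0291, where the median was 0.406. Sp1 had 8.89, 9.17 and 7.6 FPKM in KO and 15.1, 13.9 and 16.8 in WT. The implied lengths of these 3 were 7960, 10236 and 13443 nt, beside 10130 nt for Clock, and those of the 3 nearest to Dbp were 1309, 1654 and 1740 nt, beside 2529 nt for Dbp.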

How the data were processed

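Per the labels' protocols, RNA was taken with TRIzol and made into libraries with a stranded mRNA kit. The authors deposited FPKM per gene and library, and, per the file headers, a table comparing KO with WT: normalized signal averaged by group, fold ratio, its log2, p-value and q-value. The submitters' processing notes name mm10, fastp 0.19.3, HISAT2 2.1.0, featureCounts 1.6.2 and DESeq2 1.22.1, without roles. Gene IDs were matched to RefSeq's GRCm38.p6 gene table (20334 of 20893).

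The main test was limma 3.58.1 (R 4.3.3, trend, genotype only, two-sided) on log2(FPKM + 1). Groups came from the sample titles. FPKM and the deposited group means gave whole reads (100% of values up to 1000 reads within 0.05 reads) for 17686 genes, hence depth and implied lengths. The length trend was a spline of 4 degrees of freedom per library. On simulated reads at the real depths (10710 genes), 57% of 1.5-fold and 100% of 2-fold changes were recovered. These changes were put only into 100 genes for each fold, all above a set mean FPKM, with a fixed dispersion and no length trend. The shares therefore do not give the power for the clock genes. Counts of same-group libraries differed beyond sampling noise (chi-square of 19.6 to 67 per gene), so each library counted once.

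All 10 clock genes were named, the other core genes, up to 4 genes with the smallest p in each further list, 3 nearest genes each for Dbp and Clock, and marker sums. Some genes of these lists are not reported here. The members, lists and tests were chosen with earlier results of these data known. Other settings were quantile and median-ratio scaling, other filters, a pseudocount of 0.1, the replicate block, the length trend, limma-voom, and each library left out. Python 3.11.15, pandas 2.3.3, numpy 2.4.6, scipy 1.17.1 and matplotlib 3.10.9 did the rest.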

Additional observations from a re-analysis of the deposited data

How the results depend on the processing

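The count of 6 clock genes called went to 2 with quantile normalization, 2 without a filter on low values, 1 with the length trend removed and 0 with that trend removed and the replicate block. It was 4 to 5 with any 1 library left out, and 0 to 2 when the length trend was removed as well, a setting added after seeing the data. Over all genes 4772 calls became 2061 with the length trend removed and 709 with the replicate block added, while the block alone gave 3749. These settings change the test, the genes or the samples, and the cause of each lost call was not tested. Among the 10 clock genes directions turned, without a call, for Cry2 (0.0425) and Tef (0.1493) with the length trend removed, with and without the block, and Nr1d1 (-0.0128) with quantile normalization. With 1 library left out, Cry2 ranged over -0.1853 to 0.008, Arntl2 over -0.1154 to 0.1388 and Bhlhe41 over -0.0659 to 0.143. Deviations of same-numbered KO and WT libraries correlated at -0.20, -0.35 and -0.22, so no shared positive effect of replicate number was seen. Whether same-numbered libraries were handled together is not known here, and these correlations cannot settle it. The block ended the call of Per2 on the deposited values and that of Clock with the length trend removed. Genes with few reads, such as Arntl and Nfil3, are limited by depth, and intervals cover 3 libraries a group.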
